A study of Mus musculus with 4 samples.

Results

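The amino acid and neurotransmitter transporters described here are the protein-coding genes of the solute carrier families Slc1, Slc3, Slc6, Slc7, Slc36, Slc38 and Slc43, taken by gene symbol from the GENCODE annotation of the mouse build GRCm38, without Slc1a2, Slc1a3, Slc6a8 and Slc7a11. The rule gave 60 genes of the 55487 in each table, and all 60 had a row there. Of these, 50 had at least 1 count in some library and 10 had none. Counts were scaled for library size with TMM factors to CPM. Averaged over the 4 libraries, 37 members reached 1 CPM and entered the comparisons with 15596 genes in all. In 3 of those 37, Slc6a20a, Slc6a19 and Slc7a14, the level was under 1 CPM in at least 1 library, so they passed the minimum only through the libraries in which they were high. Slc7a6os also meets the rule by its letters; it is the protein-coding gene beside Slc7a6 and is not itself a transporter.

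These carriers move amino acids and transmitters derived from them across the plasma membrane or out of the lysosome. Members of Slc1 and Slc6 couple uptake to the sodium gradient and clear glutamate, GABA and glycine around synapses. Slc38 carriers exchange glutamine between astrocytes and neurons, and Slc7 light chains work as exchangers only when paired with a heavy chain of the Slc3 family. Astrocytes in the brain take up transmitters and supply neighbouring cells with glutamine, serine and precursors of glutathione.

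RNA was sequenced from primary cultured mouse astrocytes in 4 libraries, 1 for each pair of labels, in the order deficient with doxorubicin, deficient untreated, wild type with doxorubicin and wild type untreated. Deficient stands for loss of OASIS, a transcription factor of the endoplasmic reticulum membrane encoded by Creb3l1; the series compares its loss during the DNA damage response. Doxorubicin, which breaks DNA through topoisomerase II, was applied for 1 h at 1 µg/ml once cultures were past confluence, and the cells were kept for a further 24 h. All cultures were grown with serum. The sources used here name no allele, strain, age or sex, nor how many animals a culture came from. Each group is 1 library, so a difference between single libraries has no replicate check and no p-value.

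Total counts were 20171539 in the library labelled deficient with doxorubicin and 17481188 in deficient untreated, against 22559613 in wild type with doxorubicin and 19518653 in wild type untreated. Creb3l1 had 11.9 CPM with doxorubicin and 15.1 CPM untreated in the libraries labelled deficient, against 27.8 CPM with doxorubicin and 48.5 CPM untreated in those labelled wild type, so its RNA was lower but not absent. Between the genotype labels, 17 of 20 p53 target genes were lower and 24 of 24 mitosis genes higher in deficient in the additive test described below. That test called 12.6% of all genes tested higher and 10.6% lower. None of the 20 p53 targets passed 2-fold between the treatment labels in either genotype. Xist, which is made from an inactive X, had 2742 counts in deficient with doxorubicin and 2547 in wild type with doxorubicin, against 0 in deficient untreated and 1 in wild type untreated. The Y genes examined had 0 counts in both doxorubicin libraries, so the treatment label and the sex of the cultures cannot be told apart. All groups are called by their labels below, and each direction is a direction between labels.

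All 12 astrocyte markers were detected, and the markers of other cell types moved with the genotype label as well. Summed astrocyte markers had 10177 CPM with doxorubicin and 11538 CPM untreated in the deficient libraries, against 4038 CPM with doxorubicin and 4187 CPM untreated in wild type. Without Gfap, the most abundant of them in deficient, the sums were 5009 CPM with doxorubicin and 4950 CPM untreated in deficient, against 2919 CPM with doxorubicin and 3047 CPM untreated in wild type. Oligodendrocyte lineage markers had 1085 CPM with doxorubicin and 1086 CPM untreated in deficient, against 348 CPM with doxorubicin and 475 CPM untreated in wild type. Neuronal markers had 437 CPM with doxorubicin and 408 CPM untreated in deficient, against 201 CPM with doxorubicin and 228 CPM untreated in wild type. The additive test called 9 of 12, 10 of 12 and 5 of 8 tested markers of these lists higher in deficient, beside the share of all genes given above. Slc17a6 of the neuronal list was at 0 in every library. Of the fibroblast, endothelial and ependymal lists, 1 marker each was called in that test, and of 16 microglial markers 1 was higher and 3 were lower. In bulk RNA, fewer cells of a type and less RNA per cell cannot be told apart, and the part of these shifts in the results on transporters was not tested.

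By deposited TPM, which is scaled by transcript length and so allows levels of different genes to be compared, the heavy chain gene Slc3a2 stood highest with a mean of 500 TPM over the 4 libraries. The taurine carrier Slc6a6 followed at 145 TPM and the glutamine carrier Slc38a3 at 114 TPM. Slc38a1 averaged 66.6 TPM, the serine and alanine carrier Slc1a4 65.5 TPM and Slc38a10 54.1 TPM. These were followed by the nucleobase carrier Slc43a3 at 32.5, the neutral amino acid carrier Slc38a2 at 30.3, Slc7a6os at 26.1, Slc43a2 at 22.7 and the leucine exchanger chain Slc7a5 at 22.4 mean TPM, and no other member reached 20 TPM. These 11 genes held 85.0 to 87.1% of the members' summed TPM in each library. Only Slc3a2 stood clear of its neighbour in this order; each of the other 10 overlapped the next one in its range over the 4 libraries. All members together summed to 1089 TPM with doxorubicin and 1064 TPM untreated in deficient, against 1353 TPM with doxorubicin and 1516 TPM untreated in wild type.

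**Figure D1:**
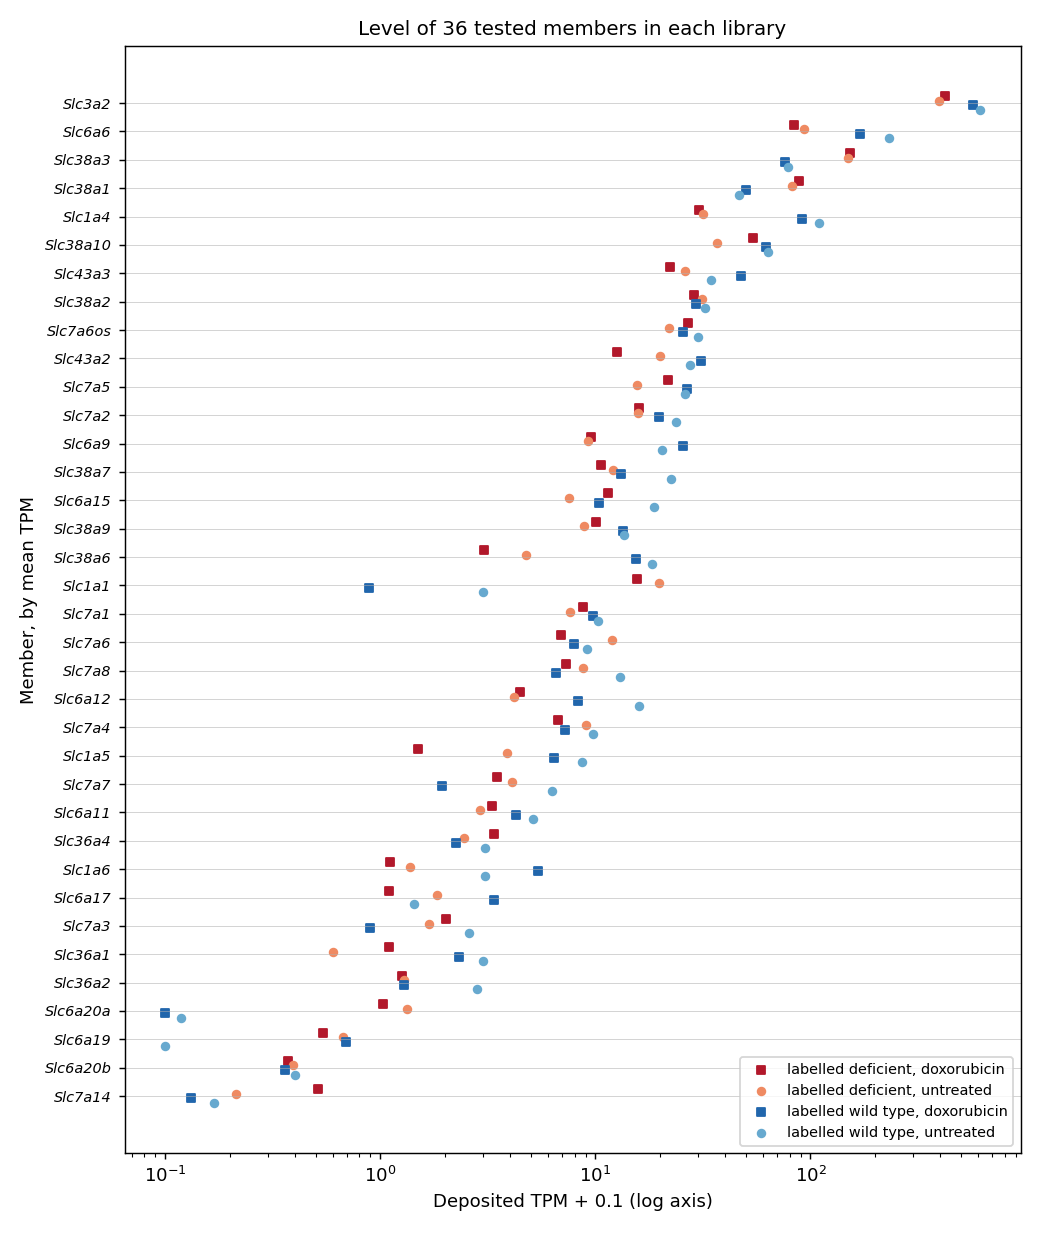
Deposited TPM, with 0.1 added for the log axis, of 36 members that entered the comparisons, 1 point for each of the 4 libraries and members ordered by mean TPM. Slc3a2 lies highest in every library, and the points of Slc1a1 lie far apart between the deficient libraries and the wild-type ones.

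The comparison of deficient with wild type asks how transporter RNA differs with loss of OASIS, in cultures with doxorubicin and in untreated ones. Slc1a1, Slc38a3, Slc38a1 and Slc6a20a were among the members higher in the deficient libraries, and Slc1a4, Slc38a6, Slc6a12, Slc1a5, Slc6a9, Slc6a6, Slc43a2, Slc43a3, Slc3a2 and Slc38a10 were lower, at adjusted p up to 0.043 in edgeR's quasi-likelihood test of genotype in an additive model with treatment. The counts were 5 of 37 higher and 10 of 37 lower, beside 12.6% of all genes tested called higher and 10.6% called lower. The counts by family below stand beside the same shares. Slc6a20a reached the minimum of 1 CPM only through the deficient libraries, so its call is no support for a direction. With a minimum of 5 CPM, 4 of 29 members were called higher and 11 lower. The shares of all genes above belong to the minimum of 1 CPM. None is given for 5 CPM, so these counts are not read against all genes. The model has 1 residual degree of freedom beside 14.3 prior ones. Its p-values thus rest mostly on a spread pooled over the genes tested in these 4 libraries. The part that comes from each gene alone cannot separate noise from a genotype difference that changes with the treatment label. No spread between replicate cultures enters the p-values.

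By size, meaning a log2 ratio of CPM + 1 of at least 1 or at most -1, 5 members were higher and 6 lower in deficient over wild type with doxorubicin, beside 10.7% and 9.55% of all genes. In the untreated libraries 5 were higher and 7 lower, beside 9.79% and 10.2% of all genes. The members' median log2 ratio was -0.14 with doxorubicin, beside 0.02 for all genes, and -0.37 untreated, beside -0.03 for all genes. Both ratios had the same sign in 28 of 37 members (75.7%), close to the 72.4% over all genes. Slc1a1, Slc38a3 and Slc6a20a were among those that passed the fold upward in both comparisons, and Slc1a4, Slc6a9 and Slc38a6 downward in both. Of these, Slc6a20a was admitted only through the deficient libraries. The counts over members were 4 upward in both, 3 downward in both and 9 in 1 only, beside 5.76%, 5.17% and 17.5% of all genes tested. On deposited TPM the median of all genes lay at -0.21 in the untreated comparison. The share of all genes' calls that were higher was 35.4% there, against 49% on CPM. On TPM, 2 of 37 members were higher and 7 lower untreated, beside 1042 and 1901 of all genes tested. With doxorubicin 3 were higher and 9 lower on TPM, beside 1237 and 1559 of all genes tested. Relative to all genes, the members' untreated median was -0.34 on CPM and -0.32 on TPM. With doxorubicin it was smaller in size, at -0.16 on CPM and -0.11 on TPM.

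**Figure D2:**
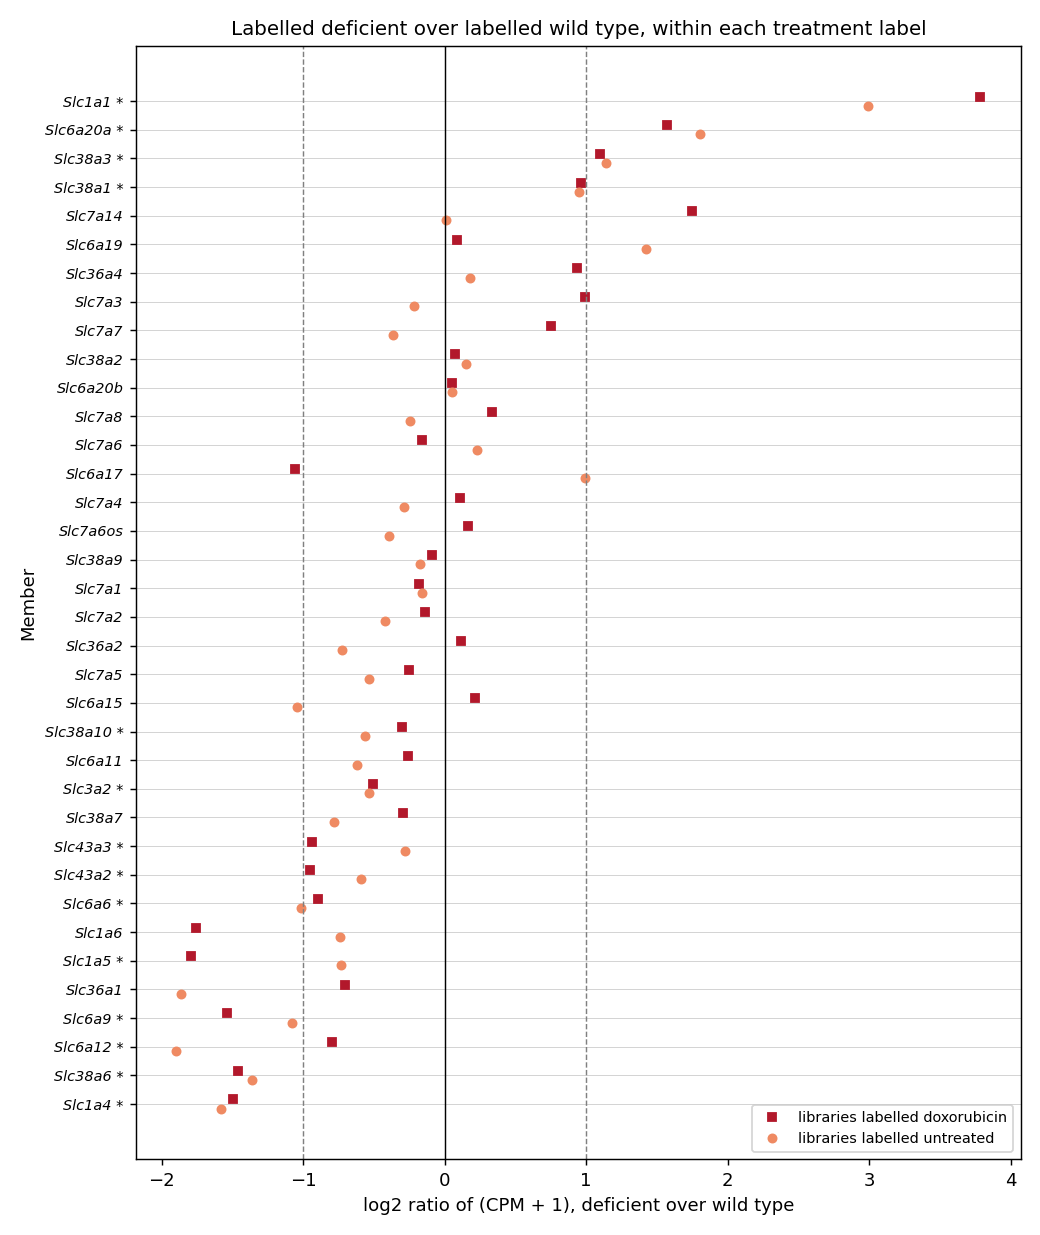
The log2 ratio of CPM + 1, labelled deficient over labelled wild type, for 36 tested members, with squares for the doxorubicin libraries and circles for the untreated libraries; an asterisk marks the 14 of them called in the additive test and dashed lines mark ratios of 1 and -1. Slc1a1 lies farthest to the right in both comparisons, and Slc1a4, Slc38a6 and Slc6a9 lie left of -1 in both.

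Among the Slc1 carriers, 4 of 5 were tested, 1 was called higher and 2 lower in deficient. Slc1a1 (chromosome 19, 28835049 to 28913960, plus strand, GRCm38) encodes a sodium-coupled carrier of glutamate and cysteine that is best known from neurons. It had 39.3 CPM with doxorubicin and 53.4 CPM untreated in the deficient libraries, against 1.92 CPM with doxorubicin and 5.82 CPM untreated in wild type. The groups did not overlap, and the ratio was 20.4 with doxorubicin (exact binomial 95% interval 15.1 to 28.4, counting error only) and 9.17 untreated (7.55 to 11.2). The additive log2 difference was 3.73 (SE 0.337, adjusted p = 8.05e-07 by edgeR). Slc1a1 shares 20919 bases with the opposite-strand gene 4430402I18Rik, which had 48 to 207 counts, and the kit does not mark strand, so reads in the overlap cannot be told apart. Of the 8 tested neuronal markers, 5 were called higher with the same label and 0 lower. Nefl pointed the other way, with log2 ratios of -1.31 with doxorubicin and -1.28 untreated, and was not called. Their part in the values of Slc1a1 was not tested. As a share of the summed TPM of Slc1a1, Slc1a2 and Slc1a3, in which Slc1a2 and Slc1a3 stand for the astrocytic glutamate carriers left out by the rule, Slc1a1 made up 2.48% with doxorubicin and 3.47% untreated in deficient, against 0.194% with doxorubicin and 0.651% untreated in wild type.

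Slc1a4 (chromosome 11, 20302180 to 20332713, minus strand) encodes an exchanger of serine, alanine and other small neutral amino acids. Its level was 96.5 CPM with doxorubicin and 104 CPM untreated in deficient, against 274 CPM with doxorubicin and 312 CPM untreated in wild type. Both deficient libraries lay below both wild-type ones, with an additive log2 difference of -1.55 (SE 0.123, adjusted p = 1.98e-07 by edgeR), the lowest p among the members. Slc1a5, a related exchanger that takes up glutamine, had 2.68 CPM with doxorubicin and 7.26 CPM untreated in deficient, against 11.7 CPM with doxorubicin and 12.8 CPM untreated in wild type. Its call, at adjusted p = 0.043 by edgeR, was lost with DESeq2 at adjusted p = 0.0889. Slc1a6, a glutamate carrier of Purkinje cells, was not called (adjusted p = 0.133 by edgeR), with log2 ratios of -1.76 with doxorubicin and -0.74 untreated. Slc1a7, a glutamate carrier of the retina, was under 1 CPM.

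The RefSeq promoter windows of Slc1a4 and Slc1a1, from 250 bases before to 50 after the start of transcription in GRCm38.p6, are shown because these genes had the lowest p in each direction within their family. The first is chr11:20332664-20332963 on the minus strand and the second chr19:28834885-28835184 on the plus strand, both written 5′ to 3′ in the direction of the gene.
Slc1a4: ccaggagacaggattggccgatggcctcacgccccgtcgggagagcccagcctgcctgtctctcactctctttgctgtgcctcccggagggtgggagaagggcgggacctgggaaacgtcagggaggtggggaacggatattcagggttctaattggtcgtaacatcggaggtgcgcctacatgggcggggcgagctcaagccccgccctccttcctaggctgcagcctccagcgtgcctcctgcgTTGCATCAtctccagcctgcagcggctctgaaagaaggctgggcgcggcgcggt
Slc1a1: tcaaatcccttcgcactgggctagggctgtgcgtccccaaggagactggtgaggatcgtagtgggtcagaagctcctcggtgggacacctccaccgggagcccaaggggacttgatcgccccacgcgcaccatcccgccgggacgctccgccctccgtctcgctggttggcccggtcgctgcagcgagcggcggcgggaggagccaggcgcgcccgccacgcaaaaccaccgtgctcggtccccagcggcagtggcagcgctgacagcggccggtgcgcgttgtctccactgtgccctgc
Capitals mark a match, here on the opposite strand, to TGATGNAA, the core of the amino acid response element through which transcription factors of amino acid shortage act. The match began 4 bases before the start site of Slc1a4, and the Slc1a1 window held none. Both strands were searched in 27025 windows of the same length, of which 4.06% held this core. Windows were found for 43 members, and 3 of them (6.98%) held it, 1 of 7 called lower and 0 of 2 called higher. The core of the antioxidant response element, TGACNNNGC, was in 12.5% of all windows and in 8 of the 43 members (18.6%), with 0 of 7 called lower and 0 of 2 called higher. These matches describe letters in the window only.

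Of the GABA and glycine carriers, 4 of 6 were tested, and the glycine and betaine carriers among them were lower in deficient. The glycine carrier Slc6a9 (chromosome 4, 117834506 to 117875198, plus strand) had 21.8 CPM with doxorubicin and 22.9 CPM untreated in deficient, against 65.4 CPM with doxorubicin and 49.5 CPM untreated in wild type. Its additive log2 difference was -1.35 (SE 0.228, adjusted p = 0.000447 by edgeR), and it overlaps B4galt2, with 379 to 785 counts, over 5939 bases, so reads in that stretch may belong to either gene.

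Slc6a12, which carries betaine and GABA, had 7.03 CPM with doxorubicin and 6.45 CPM untreated in deficient, against 12.9 CPM with doxorubicin and 26.7 CPM untreated in wild type, an additive log2 difference of -1.46 (SE 0.402, adjusted p = 0.0148 by edgeR). Slc6a11, the GABA carrier regarded as typical of astrocytes, was not called (adjusted p = 0.409 by edgeR), with 11 CPM with doxorubicin and 9.64 CPM untreated in deficient, against 13.4 CPM with doxorubicin and 15.4 CPM untreated in wild type.

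Among 10 taurine, proline and other amino acid carriers of Slc6, 6 were tested, with 1 higher and 1 lower. The taurine carrier Slc6a6 (chromosome 6, 91684053 to 91759066, plus strand) had 215 CPM with doxorubicin and 245 CPM untreated in deficient, against 401 CPM with doxorubicin and 496 CPM untreated in wild type. This was a log2 difference of -0.96 (SE 0.109, adjusted p = 1e-05 by edgeR) at the second highest level of any member. Slc6a20a, a carrier of proline and related imino acids, had 39 counts with doxorubicin and 46 untreated in deficient, against 0 counts with doxorubicin and 1 untreated in wild type. With doxorubicin the exact binomial 95% lower limit of the ratio was 11.7, and 39 counts against a floor of 3 counts in the wild-type library gave a ratio of 15.0. Untreated the ratio was 53.2 (exact binomial 95% interval 9.09 to 2147), and the call had adjusted p = 0.00983 by edgeR. Slc6a20a averaged 1.17 CPM and reached the minimum only through the deficient libraries, so these values are no support for a direction. Its closest relative Slc6a20b, with which reads may be shared, lay between 1.18 and 1.39 CPM in all 4 libraries. Slc6a15, a carrier of branched-chain amino acids and proline, was not called (adjusted p = 0.372 by edgeR) and had 25.8 CPM with doxorubicin and 17.7 CPM untreated in deficient, against 22.1 CPM with doxorubicin and 37.6 CPM untreated in wild type.

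The sodium-coupled neutral carriers of Slc38 had 7 of 11 members tested, 2 higher and 2 lower. Slc38a3 (chromosome 9, 107650634 to 107669530, minus strand), through which astrocytes release and take up glutamine, had 294 CPM with doxorubicin and 300 CPM untreated in deficient, against 136 CPM with doxorubicin and 136 CPM untreated in wild type. The groups stood well apart, with a log2 difference of 1.13 (SE 0.119, adjusted p = 4.73e-06 by edgeR). Slc38a1 (chromosome 15, 96571418 to 96642913, minus strand), a carrier for uptake of glutamine, had 298 CPM with doxorubicin and 272 CPM untreated in deficient, against 152 CPM with doxorubicin and 140 CPM untreated in wild type. Its log2 difference was 0.96 (SE 0.119, adjusted p = 2.35e-05 by edgeR).

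Slc38a2, whose RNA is known to rise when cells lack amino acids, was not called (adjusted p = 0.641 by edgeR), with 104 CPM with doxorubicin and 116 CPM untreated in deficient, against 98.9 CPM with doxorubicin and 105 CPM untreated in wild type. Slc38a3 over Slc38a2 in TPM was accordingly 5.34 with doxorubicin and 4.78 untreated in deficient, against 2.60 with doxorubicin and 2.45 untreated in wild type. Together Slc38a1, Slc38a2 and Slc38a3 summed to 269 TPM with doxorubicin and 262 TPM untreated in deficient, against 155 TPM with doxorubicin and 157 TPM untreated in wild type. Summed astrocyte markers were also higher in deficient, as given above. Glul, the glutamine synthetase of astrocytes and no member, was higher too, by an additive log2 difference of 0.73 (adjusted p = 0.000269 by edgeR).

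Slc38a6, an amino acid carrier of this family found in neurons, had 5.86 CPM with doxorubicin and 6.80 CPM untreated in deficient, against 17.9 CPM with doxorubicin and 19 CPM untreated in wild type, a log2 difference of -1.55 (SE 0.379, adjusted p = 0.00735 by edgeR). Slc38a10 differed least of the called members, at 125 CPM with doxorubicin and 106 CPM untreated in deficient, against 154 CPM with doxorubicin and 156 CPM untreated in wild type. Its adjusted p was 0.0316 by edgeR and 0.0515 with DESeq2, which did not call it. The lysosomal carriers Slc38a7 and Slc38a9, of which Slc38a9 reports lysosomal arginine to mTORC1, were not called (adjusted p = 0.117 and 0.777 by edgeR).

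The heavy chain gene Slc3a2 (chromosome 19, 8706882 to 8723369, minus strand) holds the light chains of amino acid exchangers in the plasma membrane. It had 448 CPM with doxorubicin and 451 CPM untreated in deficient, against 636 CPM with doxorubicin and 655 CPM untreated in wild type. The log2 difference was -0.52 (SE 0.0983, adjusted p = 0.00111 by edgeR), less than 2-fold, and both deficient libraries lay below both wild-type ones. The libraries of a genotype label differ in treatment label and are not replicates, so their distance is no measure of noise. None of the 4 tested member light chains was called. Slc7a5, the chain of the leucine exchanger, had 59.8 CPM with doxorubicin and 45.5 CPM untreated in deficient, against 71.5 CPM with doxorubicin and 66.2 CPM untreated in wild type (adjusted p = 0.133 by edgeR). It shares 26545 bases with the opposite-strand gene Gm20388, which had 11 counts with doxorubicin and 637 untreated in deficient, against 320 with doxorubicin and 51 untreated in wild type, and the reads there cannot be told apart. Slc7a6, Slc7a7 and Slc7a8, which carry cationic or neutral amino acids, had adjusted p of 0.951, 0.803 and 0.923 by edgeR.

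The cystine exchanger chain Slc7a11, which the rule leaves out, pairs with the same heavy chain and is given for scale. It had 3.77 TPM with doxorubicin and 6.33 TPM untreated in deficient, against 35.7 TPM with doxorubicin and 51.8 TPM untreated in wild type. The member light chains summed to 40.1 TPM with doxorubicin and 40.7 TPM untreated in deficient, against 42.8 TPM with doxorubicin and 54.1 TPM untreated in wild type. With Slc7a11 included, light chains summed to 43.9 TPM with doxorubicin and 47.0 TPM untreated in deficient, against 78.5 TPM with doxorubicin and 106 TPM untreated in wild type. Slc3a2 was 9.57 times that sum with doxorubicin and 8.46 times untreated in deficient, against 7.24 times with doxorubicin and 5.79 times untreated in wild type. Most of the difference in summed light chains thus lay in Slc7a11 and not in the members.

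**Figure D3:**
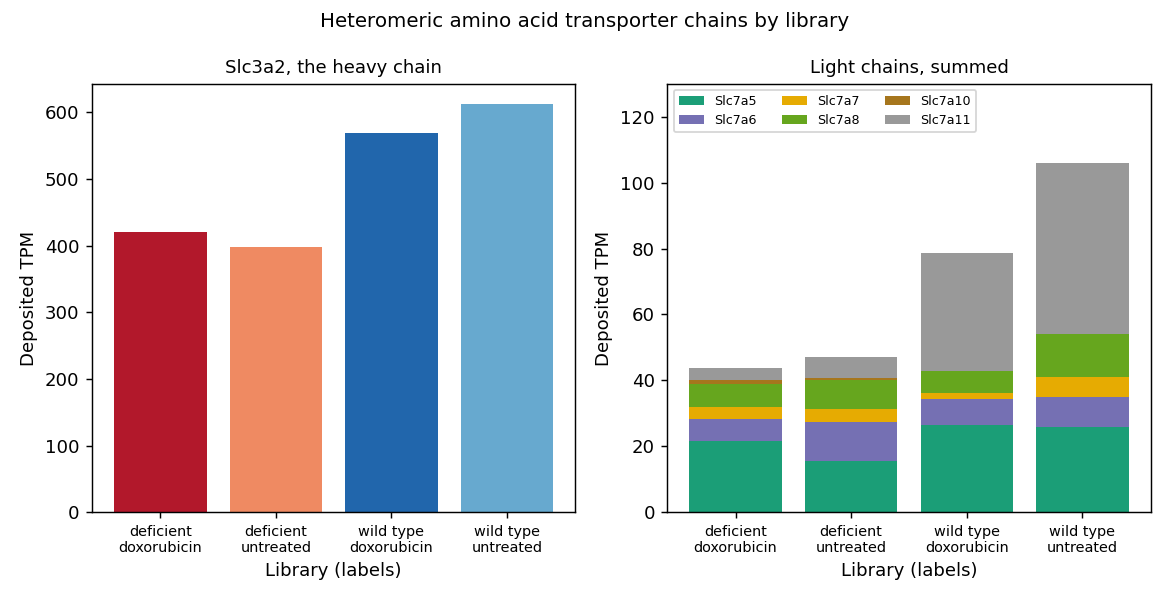
Deposited TPM of the heavy chain gene Slc3a2 (left) and of the light chain genes stacked (right) in each of the 4 libraries; each bar is 1 library and has no error. Slc3a2 lies at 420 and 398 TPM in the deficient libraries against 569 and 612 TPM in wild type, and the grey part of the right bars, Slc7a11, accounts for most of the difference in their height.

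The facilitative carriers of Slc43 had 2 of 3 members tested and both were lower. Slc43a2, a carrier of large neutral amino acids, had 52.9 CPM with doxorubicin and 73.8 CPM untreated in deficient, against 103 CPM with doxorubicin and 112 CPM untreated in wild type (log2 difference -0.78, SE 0.162, adjusted p = 0.00231 by edgeR). Slc43a3, which carries nucleobases and not amino acids, had 38.6 CPM with doxorubicin and 46.4 CPM untreated in deficient, against 74.8 CPM with doxorubicin and 56.7 CPM untreated in wild type. Its call had adjusted p = 0.0409 by edgeR and was lost with DESeq2, at 0.0937. The family list is therefore not one of amino acid carriers alone.

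No cationic carrier of Slc7 was called among 5 tested, and none of the 3 tested proton-coupled carriers of Slc36. The arginine and lysine carriers Slc7a1 and Slc7a2 had adjusted p of 0.727 and 0.215 by edgeR, and Slc7a3, Slc7a4, Slc36a2 and Slc36a4 had 0.304 to 0.893. Slc36a1, which moves amino acids out of the lysosome, came closest, with 4.30 CPM with doxorubicin and 2.32 CPM untreated in deficient, against 7.64 CPM with doxorubicin and 11.1 CPM untreated in wild type. Its adjusted p was 0.0652 by edgeR with TMM factors and 0.0437 with DESeq2 size factors, 0.0257 with a minimum of 5 CPM and 0.0428 with limma-voom, so its call depends on the setting. Slc6a19, Slc7a14 and Slc6a17 passed the fold in a genotype comparison only at low counts. Slc6a19, a neutral amino acid carrier of gut and kidney, had 29 counts in deficient untreated against 0 in wild type untreated, with a lower limit of the ratio of 8.53 (exact binomial, 95%), but 25 counts in deficient with doxorubicin against 26 in wild type with doxorubicin. Slc7a14 had 61 counts in deficient with doxorubicin and 8 untreated, against 5 in wild type with doxorubicin and 9 untreated.

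The comparison of doxorubicin with untreated asks how transporter RNA differs a day after DNA damage, within each genotype label, and here it also carries the sex difference of the cultures. In the additive test of treatment with edgeR's quasi-likelihood test, 0 of 37 members were called in either direction, beside 0.0192% of all genes called higher and 0.141% called lower. The lowest adjusted p was 0.655 by edgeR. An unadjusted p under 0.05 was found in 3 of 37 members, beside 864 of 15596 genes tested. DESeq2 and limma-voom also called 0 members. In deficient cultures 1 member was higher and 2 were lower by size, beside 1.58% and 1.93% of all genes. In wild-type cultures 1 was higher and 2 were lower, beside 4.08% and 5.45% of all genes. The members' median log2 ratio was -0.03 in deficient and -0.12 in wild type, beside 0.03 and -0.00 for all genes, and 19 of 37 members (51.4%) had the same sign in both genotypes, beside 50.7% of all genes.

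In the deficient libraries, Slc7a14 was higher with doxorubicin and Slc1a5 and Slc6a17 were lower, with log2 ratios of 1.48, -1.17 and -1.70. Slc7a14 had 3.08 CPM in deficient with doxorubicin and at most 0.465 CPM in each other library. It reached the minimum only through that library, so its ratio is no support for a direction. The vesicle-associated neutral carrier Slc6a17 had 27 counts with doxorubicin and 115 untreated in deficient, and 90 with doxorubicin and 57 untreated in wild type. In wild type, Slc6a19 was higher, with an exact binomial 95% lower limit of the ratio of 5.71, and Slc1a1 and Slc7a7 were lower with log2 ratios of -1.22 and -1.40. Slc6a19 averaged 1.02 CPM with 0 counts in wild type untreated, and passed the minimum only through the other libraries. The ratio of Slc6a19 is likewise no support for a direction. Slc1a1 pointed the same way in deficient, at -0.43, and its treatment test had an unadjusted p of 0.00923 by edgeR that did not hold after adjustment. Slc7a7, the light chain for cationic amino acids in macrophages and other cells, had 5.46 CPM with doxorubicin and 6.86 CPM untreated in deficient, and 2.84 CPM with doxorubicin and 9.14 CPM untreated in wild type.

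Microglial markers moved with the treatment label. Their sum was 3525 CPM with doxorubicin against 5567 CPM untreated in deficient, and 4544 CPM with doxorubicin against 6236 CPM untreated in wild type, and 2 of 16 were called lower in the additive test of treatment. Their part in the values of Slc7a7 was not tested. Among the most abundant members, Slc38a3 had log2 ratios of -0.03 in deficient and 0.00 in wild type, and Slc3a2 had -0.01 in deficient and -0.04 in wild type. Slc6a6 had -0.19 in deficient and -0.31 in wild type, with an unadjusted p of 0.0351 by edgeR for treatment that did not hold after adjustment (0.850). The difference of the 2 responses, deficient minus wild type, was at least 1 in 6 of 37 members and at most -1 in 4 of 37, beside 7.66% and 6.05% of all genes, and it could not be tested.

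**Figure D4:**
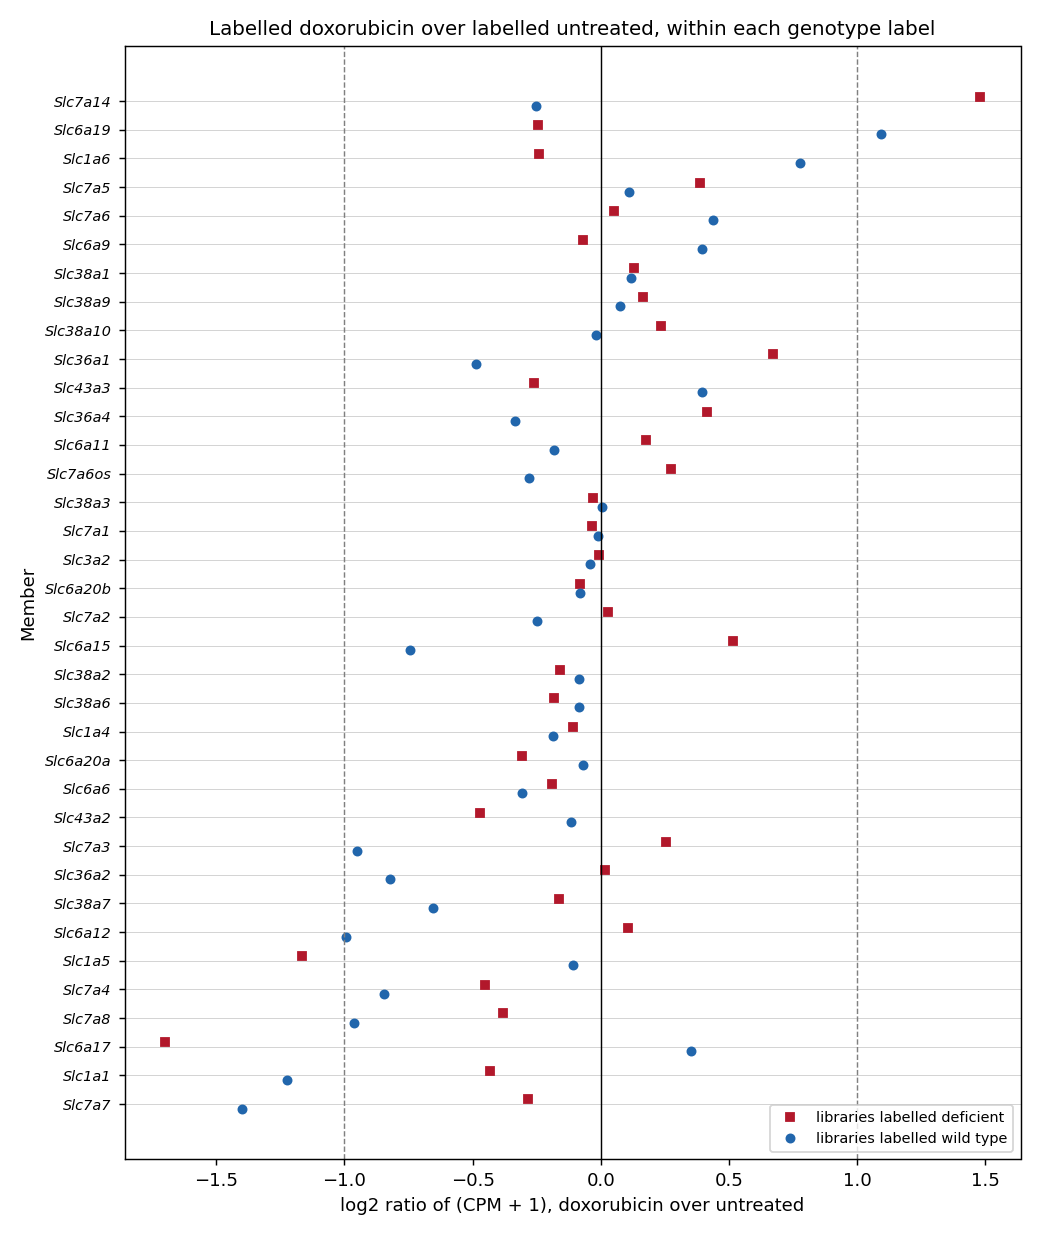
The log2 ratio of CPM + 1, labelled doxorubicin over labelled untreated, for 36 tested members, with squares for the deficient libraries and circles for the wild-type libraries; dashed lines mark ratios of 1 and -1. Most members lie between the dashed lines in both genotypes, and Slc7a14, Slc1a5 and Slc6a17 in deficient and Slc6a19, Slc1a1 and Slc7a7 in wild type lie outside them.

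Genes that make or use the same substrates are given from lists of enzymes, sensors and other carriers. Of 26 enzymes of glutamate, GABA and glycine metabolism, 24 were tested, and 6 were higher and 2 lower in deficient in the additive genotype test. The shares over all genes tested were 12.6% higher and 10.6% lower. Pycr1, of proline synthesis, and Bcat1, a branched-chain aminotransferase, had log2 ratios of 1.36 and 2.18 with doxorubicin and 2.21 and 1.13 untreated. Aldh4a1, of proline breakdown, had -1.72 with doxorubicin and -1.51 untreated, at 41.1 CPM with doxorubicin and 43.3 CPM untreated in deficient, against 138 CPM with doxorubicin and 125 CPM untreated in wild type. Gad1, which makes GABA, had 66 counts with doxorubicin and 17 untreated in deficient, against 4 with doxorubicin and 0 untreated in wild type.

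Of 32 genes of amino acid sensing at the lysosome, 29 were tested, with 4 higher and 4 lower, beside 12.6% and 10.6% of all genes tested. Sesn2, a leucine sensor and also a p53 target, had 45.2 CPM with doxorubicin and 39.7 CPM untreated in deficient, against 335 CPM with doxorubicin and 256 CPM untreated in wild type. The arginine sensor Castor1 and the lysosomal regulator Flcn were lower as well, with log2 ratios of -1.47 and -1.04 with doxorubicin and -1.18 and -1.20 untreated, and Sesn3 was higher, with 1.45 and 0.97. Relatives of these sensors went the other way, with Sesn1, also a p53 target, and Castor2 higher by additive log2 differences of 0.99 and 0.92 (adjusted p = 0.00473 and 0.0029 by edgeR). Of 22 vesicular and other carriers of the same substrates, 16 were tested, 1 was higher and 2, Ctns and Slc15a4, were lower, beside the same shares. The higher one was Slc25a18, a mitochondrial glutamate carrier, at 220 CPM with doxorubicin and 211 CPM untreated in deficient, against 97.7 CPM with doxorubicin and 98.3 CPM untreated in wild type. The vesicular amine carrier Slc18a1 and the vesicular acetylcholine carrier Slc18a3 differed by size with doxorubicin, with log2 ratios of -1.73 and 1.69, and were not called (adjusted p = 0.0886 and 0.167 by edgeR).

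Among the members that did not reach a mean of 1 CPM, 13 had counts and 10 had none. None of the 3 monoamine carriers reached it. The noradrenaline carrier Slc6a2 and the dopamine carrier Slc6a3 had 0 counts in every library, which allows up to 0.131 to 0.174 CPM, and the serotonin carrier Slc6a4 had 0 and 7 counts in the deficient libraries with doxorubicin and untreated, against 1 and 43 counts in wild type. The neutral carrier Slc38a4 had 3 and 0 counts in deficient with doxorubicin and untreated, against 0 and 52 counts in wild type. The serine exchanger chain Slc7a10, described in astrocytes, had 23 and 18 counts in deficient with doxorubicin and untreated, against 2 and 0 counts in wild type. Slc3a1, the other heavy chain gene, had 8 or 9 counts in each library. The glutamine carrier Slc38a5 had 9 and 25 counts in deficient with doxorubicin and untreated, against 17 and 0 counts in wild type. The glycine carrier Slc6a5 had 1 count in all, in wild type with doxorubicin. The other members with counts, Slc43a1, Slc6a13, Slc7a13, Slc7a15, Slc1a7, Slc38a11 and Slc6a16, had at most 19 in any library, and no direction was read from them. Beside Slc6a2 and Slc6a3, those with no count were Slc7a12, Slc6a21, Slc38a8, Slc7a9, Slc36a3, Slc6a18, Slc6a7 and Slc6a14. Of all members, Slc7a3, Slc38a5 and Slc6a14 lie on the X chromosome and none on the Y chromosome.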

How the data were processed

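The 4 RNA libraries were prepared with SMART-Seq v4, an unstranded kit, per the labels' protocols. The authors deposited an estimated count and a TPM value per gene, per the file headers; per the submitters' processing notes the tool was DRAGEN and the build GRCm38. No other upstream setting is stated in those sources. Estimated counts, fractional in 5810 to 6451 genes per library, were rounded and scaled to CPM with TMM factors of 0.9805 to 1.02. Symbols and coordinates came from GENCODE vM21 by identifier without version (55227 of 55487 matched).

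Ratios of single libraries used CPM + 1, which understates changes of low genes; called by size means a log2 ratio of at least 1 or at most -1 and a mean of at least 1 CPM. Ratio intervals are exact conditional binomial at 95%, and the floor is 3 counts per library. Both cover counting error only and hold no spread between cultures, because each group is 1 library. Reads that carry no molecular identifier can come from 1 molecule, so both may understate even the counting error. Genotype and treatment were modelled additively over 15596 genes with edgeR 4.0.16 (quasi-likelihood, R 4.3.3), with Benjamini-Hochberg adjusted p of at most 0.05 called. Their common dispersion was 0.0863, with 14.3 prior degrees of freedom beside 1 residual one. The script was tested on simulated data with a lower dispersion than this and no dependence between the factors. That check does not show how often calls are false in these libraries. DESeq2 1.42.0 and limma 3.58.1 were alternatives, with other scalings, pseudocounts and minimums. Deposited TPM set levels between genes. The members and lists were chosen with earlier results of these data known. Members were named by rule with a mean of at least 5 CPM when called or past the fold, or with a mean of at least 20 TPM; others named for low counts, for their role or for not being called were chosen after their values were seen. Promoter windows came from RefSeq. The noncoding antisense genes of these families, 3 in number, were left out and had at most 1 count. The values of 1 tested member are not reported here; it stays in the counts and medians.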

Additional observations from a re-analysis of the deposited data

Results flagged for a closer look

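In 4 members named by rule, the 2 genotype labels or the 2 treatment labels gave ratios of opposite direction, and the responses to doxorubicin, deficient minus wild type, differed by more than 1 on the log2 scale. With 1 library per group these differences were not tested. The difference was 1.26 for Slc6a15, whose log2 ratio of doxorubicin over untreated was 0.52 in deficient and -0.74 in wild type, and whose genotype ratio was 0.22 with doxorubicin and -1.04 untreated. For Slc36a1 it was 1.16, with doxorubicin ratios of 0.67 in deficient and -0.48 in wild type. Slc6a12 had a difference of 1.10, with 0.11 in deficient and -0.99 in wild type. For Slc7a7 it was 1.12, with both responses downward and genotype ratios of 0.75 with doxorubicin and -0.37 untreated. All 4 were at 2.32 to 37.6 CPM.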

How the results depend on the processing

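Log2 ratios were recomputed under the alternatives for the 17 members with a mean of at least 5 CPM that were called or past the fold. Of 340 such ratios, 290 stayed within their counting interval and 50 moved out of it. On TPM 30 of 68 moved, and under the other settings 20 of 272. These members were chosen for their level and for a call or a large ratio, so the counts do not cover the other tested members. The sign changed in 9, all of them doxorubicin ratios of at most 0.12 in size, and in none of those past 2-fold. The additive genotype test called 4 or 5 members higher and 7 to 11 lower. The shares of all genes called under these alternatives are not given here. Slc38a10, Slc43a3 and Slc1a5 lost their calls with DESeq2, with no minimum and without the other factor, each of which gave 5 higher and 7 lower. The additive treatment test called 0 under each alternative.

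Counts by size moved more, and the counts over all genes are given beside them. For deficient over wild type with doxorubicin, 3 members were higher with a pseudocount of 5 CPM, 3 with a minimum of 5 CPM and 3 on TPM. Over all genes 861, 1137 and 1237 were higher in these settings, against 1670 in the main setting. Untreated, 3 were higher with the pseudocount of 5 CPM, 3 with the minimum of 5 CPM, 8 with no minimum and 2 on TPM. Over all genes the counts in that order were 763, 1015, 1729 and 1042, against 1527 in the main setting. For doxorubicin over untreated in deficient, 0 were higher and 0 lower with the pseudocount of 5 CPM, beside 15 and 27 of all genes. With the minimum of 5 CPM 0 were higher and 1 lower, beside 77 and 107 of all genes. On TPM 0 were higher and 1 lower, beside 214 and 213 of all genes. In wild type, 0 were higher and 0 lower with the pseudocount of 5 CPM, beside 83 and 143 of all genes. With the minimum of 5 CPM and on TPM 0 were higher, beside 244 and 498 of all genes. With a pseudocount of 0.5 CPM and with no minimum 4 were lower, beside 1069 and 1235 of all genes. Higher pseudocounts and minimums remove low genes by construction; the cause of the other shifts was not tested.

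With 1 library per group no replicate could be left out. No replicate numbers pair the libraries; the treatment label is the other factor of the genotype test, and the model without it is given above. Depth limits members under 0.131 to 0.174 CPM, the level that a count of 0 allows.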
